A study of Mus musculus with 62 samples.

Results

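Gastrocnemius (GC) muscle of mice lacking the transcription factor ChREBP in skeletal muscle was compared with GC of floxed control mice, both on normal chow and without treatment. The comparison used 10 libraries of the 62 in the series, chosen by the labels for tissue, diet and genotype: 5 from ChREBP-flox;Mck-cre mice (ChMKO) and 5 from ChREBP-flox mice (F/F). Each library came from 1 mouse, F/F mice 57, 58, 69, 70 and 71 and ChMKO mice 59, 60, 61, 72 and 74, and values per library follow that order throughout. By the study's methods the mice were littermates, male and 8 to 10 weeks old unless stated otherwise. Both groups carry loxP sites around exon 8 of Mlxipl, the gene for ChREBP. Only ChMKO mice carry Mck-cre, in which regulatory sequence of the muscle creatine kinase gene Ckm drives the Cre recombinase in striated muscle fibers. No mice with Cre and without the floxed gene were among these groups, so the presence of the transgene and the loss of ChREBP cannot be told apart here. The question was which transcripts of resting GC differ when muscle ChREBP is deleted.

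ChREBP is a glucose-sensing basic helix-loop-helix leucine zipper protein. With its partner Mlx it binds carbohydrate response elements, pairs of E-box-like motifs, near genes of glycolysis, fructose handling and fatty acid synthesis, and its best-known work is in liver, fat and intestine. Its relative MondoA, encoded by Mlxip, is a glucose sensor of skeletal muscle and shares Mlx and targets such as Txnip. GC is a mixed hindlimb muscle in which fast glycolytic fibers prevail, with slow fibers in a small deep region.

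RNA enriched for mRNA was sequenced, and the deposited values are FPKM, read numbers scaled by gene length and library total. Library totals recovered from the table ran from 16390260 to 17425085 reads. Fast muscle markers were abundant in all 10 libraries: Ckm lay between 11585 and 20091 FPKM, Acta1, skeletal actin, between 16140 and 22005 FPKM, and Myh4, the myosin of fast glycolytic fibers, between 8919 and 13063 FPKM. F/F mouse 69 stood apart on the first principal component of log2(FPKM + 1), at 33.8 against -15.0 to 4.09 in the other 9 libraries. This component held 23.4% of the variance, and the genotypes overlapped on it (exact permutation p = 0.786). In 1 of 10 refits that each left out a mouse, that without F/F mouse 69, the first component, with 20.3%, differed by genotype (exact permutation p = 0.0159, unadjusted). The second component held 15.4%, with overlapping groups (exact permutation p = 0.0317, but 0.0952 adjusted over 3 components, where 0.00794 is the smallest possible). As these are whole-muscle samples, fewer cells of a type and less RNA per cell cannot be told apart.

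The deleted exon frames what the Mlxipl values can show. It is exon 8 of 17 in the GENCODE transcript Mlxipl-201 (GRCm38, chr5:135128513-135128697, plus strand), with 185 bases of a 3622-base transcript, or 5.11%. Its length leaves a remainder of 2 when divided by 3, so joining exon 7 to exon 9 shifts the reading frame.
Mlxipl exon 8: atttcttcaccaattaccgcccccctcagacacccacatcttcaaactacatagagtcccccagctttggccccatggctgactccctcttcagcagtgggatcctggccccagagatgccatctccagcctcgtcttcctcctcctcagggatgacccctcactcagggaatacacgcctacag
A transcript without these bases still gives reads over the rest of the gene, so FPKM over the whole gene checks the label only in part.

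Mlxipl (chr5:135089891-135138382, plus strand) was lower in ChMKO GC. Its level stood at 23.2, 30.3, 22.7, 28.0 and 20.4 FPKM in F/F and at 12.5, 14.8, 18.1, 18.5 and 14.8 FPKM in ChMKO mice. Every ChMKO library lay below every F/F library. The means were 24.9 ± 4.10 and 15.7 ± 2.53 FPKM (SD, n = 5 each), a ratio of 0.632. On the log2(FPKM + 1) scale the difference was -0.63 (SE 0.13, 95% interval -0.91 to -0.35; limma adjusted p = 0.414 over all genes; exact permutation p = 0.00794, the smallest 5 against 5 can give). It was -0.79 among mice 57 to 61 and -0.48 among mice 69 to 74. Recovered reads on the gene numbered 1446 to 2088 in F/F and 898 to 1353 in ChMKO libraries. Of the other 116 tested genes that start within 5 Mb of Mlxipl, 67 had a higher and 49 a lower mean in ChMKO, with a median difference of 0.02. Gm6598 alone among them had an unadjusted p under 0.05 (0.25, adjusted p = 1), or 0.862%, beside 2.86% of all genes in that direction.

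MondoA and Mlx overlapped between the genotypes. MondoA (Mlxip, chr5:123394798-123457932) was at 16.1 ± 1.39 FPKM in F/F and at 14.6 ± 2.07 FPKM in ChMKO (log2 difference -0.13, 95% interval -0.34 to 0.07, adjusted p = 1). Mlx (chr11:101086711-101092207) was at 3.10 ± 0.545 and 3.2 ± 0.17 FPKM (0.04, interval -0.16 to 0.25, adjusted p = 1). Mnt, a repressor that competes for Max and Mlx, was at 2.53, 2.68, 2.16, 2.29 and 2.36 FPKM in F/F and at 2.98, 2.71, 3.03, 3.18 and 2.74 FPKM in ChMKO. Those groups did not overlap, but the difference of 0.21 missed the adjusted threshold (adjusted p = 0.862). Over the 11 genes of the Mondo, Max and Mxd network, 5 means were higher and 6 lower.

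**Figure D1:**
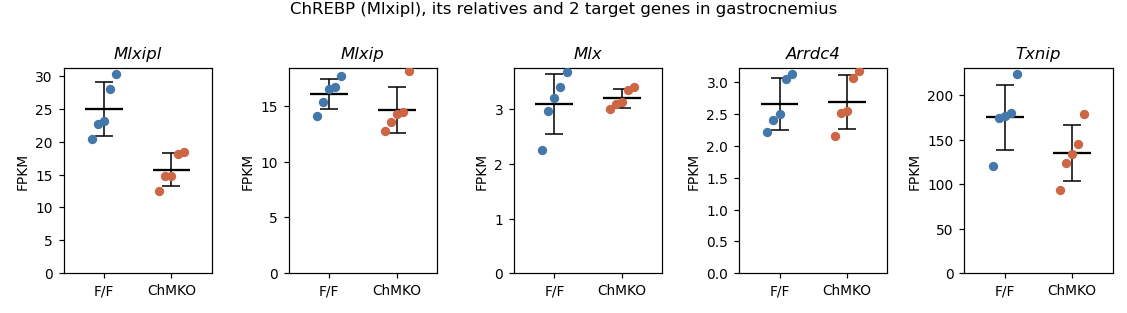
FPKM of Mlxipl, Mlxip, Mlx, Arrdc4 and Txnip in each library, with 5 F/F and 5 ChMKO points per panel, the mean as a line and the SD as bars. All 5 ChMKO libraries lie below the F/F libraries for Mlxipl, and the groups overlap for the other genes.

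Known targets were read next. Txnip, an arrestin-like brake on glucose uptake induced by Mondo proteins, was at 224, 180, 177, 174 and 120 FPKM in F/F and at 145, 93.3, 124, 134 and 179 FPKM in ChMKO. The groups overlapped (difference -0.37, 95% interval -0.78 to 0.03, adjusted p = 1). The difference was -0.75 among mice 57 to 61 and 0.00 among mice 69 to 74. Arrdc4, its close paralog, was at 2.66 ± 0.407 and 2.69 ± 0.424 FPKM (0.01, interval -0.21 to 0.23, adjusted p = 1). The sign of that small Arrdc4 value turned under several alternatives.

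Of 34 listed ChREBP targets, 25 passed the mean of 0.5 FPKM required for testing, 17 with a higher and 8 with a lower mean in ChMKO. Their median difference was 0.05, beside 0.01 over all genes tested. That median was 0.01 without ChMKO mouse 74 and 0.07 without F/F mouse 69. The 9 that did not pass included Pklr, the liver pyruvate kinase and a classic ChREBP target, which reached at most 0.0834 FPKM in any library. Pkm, the muscle pyruvate kinase, was at 1515 ± 211 FPKM in F/F and at 1629 ± 70.9 FPKM in ChMKO (0.12, interval -0.12 to 0.35). Fasn, fatty acid synthase, was the 1 target with an unadjusted p under 0.05, beside 2.86% of all genes in that direction, and its mean was higher in ChMKO, 5.12 ± 1.6 against 3.08 ± 1.20 FPKM (0.59, adjusted p = 1). Scd1, stearoyl-CoA desaturase, ran from 5.23 to 24.3 FPKM in F/F and from 9.23 to 33.5 FPKM in ChMKO (0.62, interval -0.40 to 1.64). Scd1 and Fasn are also abundant in fat cells, and Adipoq, the adipocyte hormone adiponectin, was at 4.99, 1.14, 10.6, 8.85 and 1.97 FPKM in F/F and at 3.50, 7.61, 5.49, 5.82 and 9.47 FPKM in ChMKO. Scd1 and Adipoq were both low in F/F mice 58 and 71 and highest among ChMKO mice in mice 60 and 74. The part of fat cells in these differences was not tested. G0s2, an inhibitor of adipose triglyceride lipase, was at 11.9, 29.6, 5.79, 6.50 and 2.67 FPKM in F/F and between 3.99 and 7.48 FPKM in ChMKO (-0.39, interval -1.38 to 0.60). Without F/F mouse 58 the G0s2 difference was 0.04.

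Promoter windows (RefSeq, GRCm38.p6, 250 bases before to 50 after a start) show where the letters CACGTG, the perfect E-box, which reads alike on both strands, lie in Mlxipl itself and in Arrdc4. They are given in lower case with CACGTG in capitals, Mlxipl from chr5:135089640-135089939 (plus strand) and Arrdc4 from chr7:68749189-68749488 (minus strand).
Mlxipl: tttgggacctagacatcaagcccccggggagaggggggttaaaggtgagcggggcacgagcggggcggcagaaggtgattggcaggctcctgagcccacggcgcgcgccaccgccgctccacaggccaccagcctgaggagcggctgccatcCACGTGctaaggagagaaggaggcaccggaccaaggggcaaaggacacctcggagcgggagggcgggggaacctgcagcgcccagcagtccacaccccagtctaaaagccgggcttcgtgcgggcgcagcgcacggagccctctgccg
Arrdc4: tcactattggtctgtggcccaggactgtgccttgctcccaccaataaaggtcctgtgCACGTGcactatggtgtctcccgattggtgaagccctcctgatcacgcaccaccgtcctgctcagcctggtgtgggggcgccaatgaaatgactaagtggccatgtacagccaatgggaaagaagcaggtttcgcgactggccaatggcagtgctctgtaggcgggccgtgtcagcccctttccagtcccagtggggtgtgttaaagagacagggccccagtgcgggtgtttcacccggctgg
Of all 32851 windows, 7.15% hold CACGTG. Of the ChREBP targets tested, 18 had a window and 2 (Arrdc4 and Khk) held it, or 11.1%, beside 12.1% of tested genes with a window. The window of the second Mlxipl start holds no CACGTG, and Txnip's none in these 300 bases.

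Across all genes the genotypes were close. Of 12724 genes tested, 98.1% differed by less than 0.5 on the log2(FPKM + 1) scale. The median 95% interval reached 0.21 to either side. An unadjusted p under 0.05 was reached by 364 genes with a higher mean in ChMKO (2.86% of those tested) and 225 with a lower one (1.77%). The study's criterion, a log2 fold change of 1 or more in size together with an unadjusted p under 0.05, which the study set on DESeq2 results and which is read here from limma on log2(FPKM + 1), was met by 14 genes in the higher (0.11%) and 7 in the lower direction (0.055%). The balance of directions turned on single mice, with 9 higher and 13 lower when F/F mouse 69 was left out and 22 and 3 when F/F mouse 58 was. They were 9 and 16 when F/F mouse 69 and ChMKO mice 59 and 74 were left out together. Past an adjusted p of 0.05 with the same fold limit were 3 genes (0.0236%). The 5 ChMKO values lay wholly above the F/F values for 69 genes (0.542%) and wholly below for 40 (0.314%). By chance alone a gene separates 5 against 5 fully with a probability of 0.00794, both directions together, so these shares are near chance. Of the 21 genes past the study's criterion, 7 were protein-coding, 5 long noncoding and 9 small RNAs of 45 to 119 bases. With protein-coding genes tested alone none passed the adjusted p (limma, 8 past the study's criterion).

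**Figure D2:**
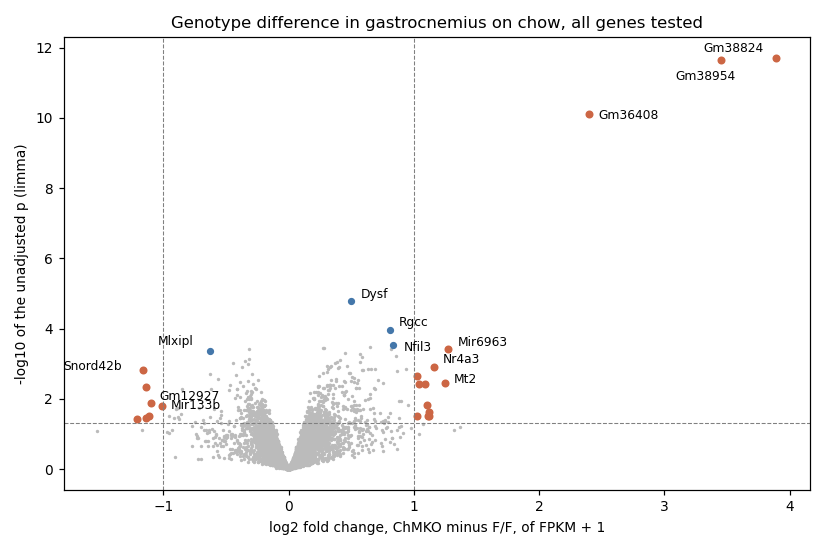
Log2 fold change (ChMKO minus F/F) against -log10 of the unadjusted limma p for 12724 genes, with the 21 genes past the study's criterion in orange, 4 other named genes in blue, and dashed lines at a fold change of 1 and p of 0.05. The noncoding genes Gm38824, Gm38954 and Gm36408 stand far from all others.

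The 3 genes past the adjusted p were long noncoding RNAs, Gm38824, Gm38954 and Gm36408, and all were listed at 0 in every F/F library. Gm38824 (chr6:66311011-66315679, minus strand) had 16.9, 15.7, 15.5, 10.02 and 12.3 FPKM in ChMKO GC, from 245, 225, 219, 148 and 180 reads. Gm38954 (chr7:19405689-19408309, plus strand) had 10.9, 13.1, 7.98, 8.85 and 9.68 FPKM, from 32 to 53 reads. Gm36408 (chr6:66148439-66272364, minus strand) had 4.24, 5.30, 4.35, 3.05 and 4.70 FPKM, from 19 to 32 reads. Each was thus present in all 5 ChMKO and in no F/F library. Against a floor of 3 reads over the 5 F/F libraries together, Gm38824 was at least 335-fold, Gm38954 at least 68.2-fold and Gm36408 at least 43.5-fold higher. The adjusted p from limma was 1.48e-08, 1.48e-08 and 3.37e-07. As all F/F values are 0 without spread, these p-values rest on the spread among ChMKO mice alone. The 3 genes also passed the filter through their ChMKO values alone. All 3 kept an adjusted p under 0.05 in every fit that tested them, but Gm36408 is below the stricter filter of 5 FPKM and the fit of protein-coding genes leaves all 3 out.

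Their positions set them beside known features. Gm38954 ends 2.79 kb before the start of Ckm on the same strand, the gene whose regulatory sequence drives Mck-cre. Ckm itself was at 15048 ± 3268 FPKM in F/F and at 14544 ± 603 FPKM in ChMKO (-0.02, interval -0.38 to 0.33). Its sign turned under 4 alternatives. Gm36408 and Gm38824 lie 38.6 kb apart on chromosome 6. Within 1 Mb of Gm38824, 9 other genes were tested and Gm36408 alone had an unadjusted p under 0.05. The nearest protein-coding one, Gng12, differed by -0.0040. Within 1 Mb of Gm38954, 45 were tested, the median difference was 0.04, and Pvr, an adhesion receptor, was the 1 with an unadjusted p under 0.05 (0.23, adjusted p = 1). That is 2.22% of them, beside 2.86% of all genes in that direction. Whether the reads of Gm38954 came from its own locus or from sequence carried with the transgene was not tested. The promoter windows of Gm36408 and Ckm are printed because the first belongs to a gene entry with reads in ChMKO libraries alone, with no read placed at its start here, and the second is the muscle-specific start beside Gm38954 (chr6:66272315-66272614, minus strand, and chr7:19410844-19411143, plus strand, with no part in capitals).
Gm36408: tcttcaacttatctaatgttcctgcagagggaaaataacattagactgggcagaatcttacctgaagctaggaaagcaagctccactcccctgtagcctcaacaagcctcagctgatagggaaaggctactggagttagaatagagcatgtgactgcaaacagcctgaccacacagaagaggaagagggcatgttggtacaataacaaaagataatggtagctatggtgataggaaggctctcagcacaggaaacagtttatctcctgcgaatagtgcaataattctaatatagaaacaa
Ckm: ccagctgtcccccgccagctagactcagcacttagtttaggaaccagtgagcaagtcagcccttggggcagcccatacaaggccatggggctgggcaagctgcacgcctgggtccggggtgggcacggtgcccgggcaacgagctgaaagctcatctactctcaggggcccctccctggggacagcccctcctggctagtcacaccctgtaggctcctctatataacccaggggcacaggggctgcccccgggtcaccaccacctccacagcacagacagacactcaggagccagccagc
The same RNAs were at 0 in all 5 soleus (SOL) libraries of F/F mice and at 8.30 to 10.2 (Gm38824), 2.61 to 4.88 (Gm38954) and 2.41 to 4.75 FPKM (Gm36408) in SOL of ChMKO mice. SOL is a slow hindlimb muscle of the same mice, so those libraries are no independent mice.

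Other coding genes past the study's criterion were Mt2, Nr4a3, Irs2, Thbs1, Thbs4, Kera and Cilp2, each with a higher mean in ChMKO. None passed the adjusted p. Mt2, a metallothionein that binds zinc and is induced by glucocorticoids, was at 12.5, 12.8, 39.1, 17.7 and 30.2 FPKM in F/F and at 59.7, 58.3, 63.9, 25.0 and 53.0 FPKM in ChMKO. ChMKO mouse 72 lay within the F/F range (difference 1.25, interval 0.50 to 1.99, adjusted p = 0.654). The difference was 2.17 among mice 57 to 61 and 0.39 among mice 69 to 74. Irs2, an adaptor of the insulin receptor, was at 7.92, 18.6, 5.39, 11.3 and 12.5 FPKM in F/F and at 20.6, 13.9, 22.1, 35.7 and 28.5 FPKM in ChMKO. One ChMKO library lay within the F/F range (1.09, interval 0.43 to 1.75, adjusted p = 0.654). The long noncoding 9530052E02Rik, which overlaps the start of Irs2 on the opposite strand by 581 bases, had 3.94 ± 1.78 and 8.88 ± 2.91 FPKM (1.02, adjusted p = 0.563), and reads of the overlap may be shared between them. Thbs1, thrombospondin 1 of the matrix, was at 4.94 ± 2.92 and 10.8 ± 4.20 FPKM (1.10, adjusted p = 1).

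Thbs4, Kera and Cilp2 belong to tendon and its matrix, and were highest in ChMKO mice 59 and 74 and lowest in F/F mouse 69. Leaving out single mice gave differences of 0.74 to 1.36 for Thbs4, 0.79 to 1.39 for Kera and 0.80 to 1.27 for Cilp2. Nr4a3 is described with the immediate early genes below. Thbs4, a thrombospondin of tendon, was at 40.5, 24.3, 6.26, 20.6 and 25.6 FPKM in F/F and at 87.9, 27.7, 35.7, 29.9 and 73.7 FPKM in ChMKO. ChMKO mice 59 and 74 were high and F/F mouse 69 was low (1.12, interval 0.12 to 2.13, adjusted p = 1). Kera, keratocan of the corneal and tendon matrix, was at 5.23, 2.03, 0.190, 2.75 and 1.39 FPKM in F/F and at 12.0, 4.61, 2.49, 3.02 and 8.26 FPKM in ChMKO. Cilp2, a cartilage and tendon matrix protein, was at 1.45 ± 1.17 and 4.26 ± 3.05 FPKM. Without F/F mouse 69 and ChMKO mice 59 and 74 together, the differences were 0.20 for Thbs4, 0.25 for Kera and 0.20 for Cilp2. Those 3 libraries were chosen after seeing the data, by the summed tendon and Schwann cell markers below. Smaller differences of tendon genes without them thus follow from the choice. Of the 21 genes, 11 met the study's criterion without them.

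Small RNAs past the criterion rested on few reads. Snord42b had 4, 7, 4, 3 and 4 reads in F/F and 1, 1, 4, 1 and 1 in ChMKO libraries (-1.16, adjusted p = 0.469). The hairpin of Mir6963 had no read in F/F libraries and 1, 2, 5, 1 and 1 in ChMKO (adjusted p = 0.411). Mir23a had 1, 1, 0, 0 and 1 reads against 4, 2, 0, 4 and 7, Mir7651 had 2, 1, 2, 3 and 4 against 0, 1, 0, 2 and 0, and Mir133b, a muscle miRNA, had 3, 11, 1, 4 and 1 against 1, 0, 0, 1 and 1. Mir7045, named for size without overlap and below the fold limit of the criterion, was deeper, with 9, 6, 6, 7 and 10 reads against 20, 12, 12, 16 and 12 and no overlap (0.82, interval 0.46 to 1.18, adjusted p = 0.411). The criterion was also met by Snord65, Snord58b, Scarna2 and the long noncoding Gm12927 with lower means, and by Snord45b with a higher one. Reads on such short features in a library of enriched mRNA can come from precursors or overlapping transcripts, and mature miRNAs were not measured. The mature arms that these miRNA hairpins encode are shown with the seed (bases 2 to 8) in capitals, and no seed is shared among them (RefSeq, GRCm38.p6).
mmu-miR-6963-5p: gGUGGGAUggauggcagaaccugg
mmu-miR-6963-3p: uGCCUCUUgccuccaucccacag
mmu-miR-23a-5p: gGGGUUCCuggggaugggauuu
mmu-miR-23a-3p: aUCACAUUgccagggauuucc
mmu-miR-133b-5p: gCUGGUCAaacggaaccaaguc
mmu-miR-133b-3p: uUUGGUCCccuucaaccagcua
mmu-miR-7651-5p: aAGUGGAAagccagccugagau
mmu-miR-7651-3p: uCAGUUUGguuuuuuuccccuuga
mmu-miR-7045-5p: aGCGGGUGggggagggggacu
mmu-miR-7045-3p: uCUCCCCCcucccccgcacag
Their loci are chr15:103350455-103350525 (Mir6963), chr8:84208518-84208592 (Mir23a), chr1:20682769-20682887 (Mir133b), chr11:6401630-6401693 (Mir7651) and chr6:125097024-125097086 (Mir7045).

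Above a mean of 5 FPKM, 31 of 5710 genes lay wholly higher (0.543%) and 13 wholly lower (0.228%) in ChMKO. These shares are also near the chance of full separation given above, and the genes with the largest differences are given here. Nfil3, a bZIP repressor of the clock and stress responses, was at 11.1, 17.5, 14.6, 8.93 and 11.6 FPKM in F/F and at 19.2, 19.7, 24.3, 24.5 and 28.4 FPKM in ChMKO (0.84, interval 0.48 to 1.19, adjusted p = 0.411). Rgcc, a regulator of the cell cycle and of complement responses, was at 27.3, 29.0, 38.7, 33.2 and 37.2 FPKM in F/F and at 49.9, 46.9, 73.5, 68.8 and 56.7 FPKM in ChMKO (0.81, interval 0.50 to 1.12, adjusted p = 0.28). Both held within each range of mouse numbers, at 0.55 and 1.13 for Nfil3 and 0.96 and 0.77 for Rgcc. Sik1, a kinase induced by cAMP that restrains CREB coactivators, was at 16.4 ± 3.57 and 26.01 ± 2.1 FPKM (0.65, adjusted p = 0.411). Tnfrsf12a, the TWEAK receptor, was at 14.97 ± 3.02 and 22.2 ± 4.35 FPKM (0.54, adjusted p = 0.660). No value of these genes in ChMKO fell within the F/F range.

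Immediate early and heat shock genes, transcripts induced within minutes of a stimulus or by unfolded protein, gave 28 tested members. Of these 23 had a higher and 5 a lower mean in ChMKO, with a median difference of 0.22 beside 0.01 over all genes. The median was 0.33 without F/F mouse 58, 0.15 without ChMKO mouse 59 and 0.16 without F/F mouse 69. It was also 0.16 above 5 FPKM and with mouse number range as a term. An unadjusted p under 0.05 was reached by 6 in the higher and 1 in the lower direction, beside 2.86% and 1.77% of all genes, and none passed the adjusted p (smallest 0.469). Nr4a3, an orphan nuclear receptor induced by exercise and cAMP, was at 1.43, 3.61, 1.76, 1.84 and 4.37 FPKM in F/F and at 4.72, 4.75, 6.11, 7.76 and 11.9 FPKM in ChMKO. The groups did not overlap (1.16, interval 0.57 to 1.75, adjusted p = 0.469). Without F/F mouse 69 and ChMKO mice 59 and 74 the Nr4a3 difference was 0.97. Maff, a small Maf bZIP protein, was at 1.46, 3.37, 3.34, 3.09 and 3.76 FPKM against 6.93, 5.75, 6.93, 6.97 and 4.21 FPKM (0.86, adjusted p = 0.469). Fosl2, an AP-1 subunit, was at 7.15 ± 1.46 and 12.3 ± 3.92 FPKM (0.68, adjusted p = 0.660), and Hsph1, a large heat shock protein, at 22.9 ± 4.08 and 31.4 ± 3.49 FPKM (0.45, adjusted p = 0.629). These groups did not overlap either. Atf3, a bZIP factor of the stress response, did overlap, at 2.68 to 11.9 FPKM in F/F and at 7.71 to 14.8 FPKM in ChMKO (0.90, adjusted p = 0.902). The list was not uniform: Ier2, an immediate early gene, was at 7.49 ± 1.57 and 5.40 ± 1.17 FPKM (-0.41, adjusted p = 1), and Egr1, a zinc finger factor induced by growth signals, at 23.1 ± 12.1 and 16.5 ± 9.004 FPKM (-0.45, interval -1.30 to 0.40).

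**Figure D3:**
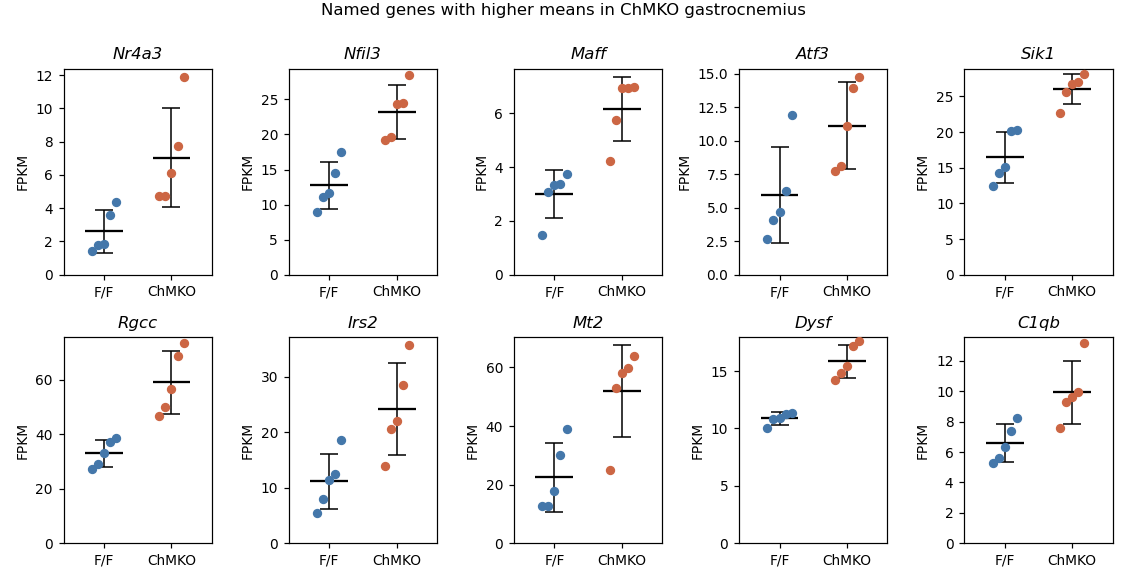
FPKM of 10 named genes in each library, with the mean as a line and the SD as bars (5 F/F and 5 ChMKO points per panel). The groups do not overlap for Nr4a3, Nfil3, Maff, Sik1, Rgcc and Dysf, and do overlap for Atf3, Irs2, Mt2 and C1qb.

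The cAMP response element TGACGTCA and its part TGACG (or CGTCA on the other strand) were looked for in the same promoter windows, since several of these genes are known cAMP targets. Maff is shown because its window holds both TGACGTCA and CACGTG, and Nfil3 because TGACG lies in it. The motifs are in capitals, Maff from chr15:79347270-79347569 (plus strand) and Nfil3 from chr13:52980990-52981289 (minus strand).
Maff: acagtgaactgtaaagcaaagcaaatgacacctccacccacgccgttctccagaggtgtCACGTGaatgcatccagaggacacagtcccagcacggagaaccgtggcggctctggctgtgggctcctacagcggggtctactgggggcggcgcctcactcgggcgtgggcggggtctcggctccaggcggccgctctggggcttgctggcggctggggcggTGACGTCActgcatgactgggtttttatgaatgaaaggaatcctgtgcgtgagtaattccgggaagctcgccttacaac
Nfil3: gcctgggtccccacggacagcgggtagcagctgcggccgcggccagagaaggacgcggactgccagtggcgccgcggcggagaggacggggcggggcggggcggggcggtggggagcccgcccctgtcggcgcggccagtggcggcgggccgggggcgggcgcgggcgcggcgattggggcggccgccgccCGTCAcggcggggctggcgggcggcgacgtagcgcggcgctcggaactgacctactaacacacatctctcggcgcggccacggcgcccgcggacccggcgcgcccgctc
TGACG, which every TGACGTCA contains, was held by 14 of 21 immediate early and heat shock genes with a window, or 66.7%, and by 35.7% of tested genes with one. It was in 20.8% of all windows, and TGACGTCA in 1.79%. The share of the list describes the listed genes and not the genotype difference. Among the largest differences in the higher direction 12 genes had a window, and 4 held TGACG (Nr4a3, Nfil3, Rgcc and 9530052E02Rik), or 33.3%. TGACGTCA was held by 0 of these 12, beside 3.59% of tested genes with a window. A match describes letters only.

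Dysf gave the smallest p after the 3 noncoding RNAs and is named for that, after its values were seen. It encodes dysferlin, a membrane protein that reseals muscle fibers. Its level stood at 11.4, 10.02, 10.8, 10.95 and 11.2 FPKM in F/F and at 15.4, 14.3, 14.8, 17.2 and 17.6 FPKM in ChMKO GC. The F/F libraries lay within a narrow range and all ChMKO libraries above it. The ratio of means was 1.46 and the log2 difference 0.50 (SE 0.07, interval 0.35 to 0.66; limma adjusted p = 0.0536). The adjusted p was under 0.05 with a pseudocount of 0.1 (0.0439), above 5 FPKM (0.0296), with mouse number range as a term (0.0213) and with voom on recovered reads (0.0341), and its range over all alternatives was 0.0213 to 0.640. Dysf (chr6:84008314-84211060, plus strand) starts 17.7 Mb from the end of Gm38824. On chromosome 6 as a whole 29 of 606 tested genes had an unadjusted p under 0.05, or 4.79%, and the median difference was 0.0016. Over all genes 2.86% had such a p with a higher and 1.77% with a lower mean.

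Of the 13 genes above 5 FPKM that lay wholly lower in ChMKO, the 8 with the largest differences were Mlxipl and 7 others. Cdkn1b, the cyclin-dependent kinase inhibitor p27, was at 10.9, 13.7, 10.7, 14.8 and 10.8 FPKM in F/F and at 10.2, 9.52, 9.90, 8.61 and 8.91 FPKM in ChMKO (-0.33, adjusted p = 0.707). Zc3h8, a zinc finger protein, was at 6.69 ± 0.437 and 5.61 ± 0.367 FPKM (-0.22, adjusted p = 0.716). Sec61g, a subunit of the protein channel of the endoplasmic reticulum, was at 17.6 ± 1.93 and 15.3 ± 0.471 FPKM (-0.19, adjusted p = 1). The coding gene Igip, the noncoding 1700113A16Rik and the pseudogenes Gm5436 and Gm12251 completed the 8, with differences of -0.25 to -0.32.

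Genes of atrophy, FoxO and glucocorticoid action had 29 tested members, 21 with a higher and 8 with a lower mean. Of these, 7 had an unadjusted p under 0.05, all with higher means, beside 2.86% of all genes tested. The median difference was 0.10, beside 0.01 over all genes, and 0.06 without F/F mouse 57 or ChMKO mouse 59. It was 0.25 over the 24 members above 5 FPKM. Mt2 and Irs2 led the list. Fkbp5, a chaperone that glucocorticoids induce, was at 3.45, 4.37, 4.94, 5.15 and 6.06 FPKM in F/F and at 5.50, 8.06, 7.03, 6.77 and 8.55 FPKM in ChMKO (0.50, adjusted p = 0.629). Only ChMKO mouse 59 lay within the F/F range. Trim63, the ubiquitin ligase MuRF1, was at 158 ± 33.1 and 205 ± 22.6 FPKM (0.39, adjusted p = 1), and Cdkn1a, the inhibitor p21, at 13.96 ± 5.38 and 20.6 ± 4.19 FPKM (0.58, adjusted p = 1). Mt1 and Zbtb16, both glucocorticoid-induced, differed by 0.76 and 0.33 with an adjusted p of 1. Leaving out single mice gave 0.50 to 1.07 for Mt1 and 0.21 to 0.40 for Zbtb16.

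Lipid genes differed little between the genotypes. Of the list for triglyceride synthesis and lipid droplets 25 were tested, 14 with a higher and 11 with a lower mean, and the median was 0.02. That median was -0.03 without F/F mouse 69 and 0.07 without ChMKO mouse 59. Hilpda, a droplet protein that inhibits lipolysis, was the 1 with an unadjusted p under 0.05 (1.77% of all genes in that direction), at 1.24 ± 0.223 and 0.898 ± 0.204 FPKM (-0.24, adjusted p = 1). Plin2, the general droplet coat protein of muscle, was at 11.7 ± 0.980 and 13.2 ± 1.42 FPKM (0.16, interval -0.02 to 0.34). Of 43 tested lipid transporters 25 were higher and 18 lower, with a median of 0.02 and none with an unadjusted p under 0.05. Fatty acid uptake and oxidation genes leaned the other way, with 30 of 35 lower and a median of -0.10. Leaving out F/F mouse 58, F/F mouse 69 or ChMKO mouse 72 moved that median to -0.02, -0.16 or -0.15. The one with an unadjusted p under 0.05 was higher (2.86% of all genes in that direction), Acsl3, an acyl-CoA synthetase of droplet growth, at 5.70 ± 1.96 and 8.27 ± 1.32 FPKM (0.50, adjusted p = 1). Slc27a1, a fatty acid transport protein, was at 24.8 ± 4.46 and 19.9 ± 4.18 FPKM (-0.31, interval -0.65 to 0.02). Fabp3, the heart and slow-fiber fatty acid binder, ran from 5.15 to 38.5 FPKM in F/F and from 2.06 to 50.7 FPKM in ChMKO.

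Carbohydrate and mitochondrial genes were also close. Among 47 tested genes of glycolysis and glycogen 34 means were higher and 13 lower, with a median of 0.07. Stbd1, which tethers glycogen to membranes, was the 1 with an unadjusted p under 0.05 (2.86% of all genes in that direction), at 19.4, 15.2, 20.1, 13.7 and 19.7 FPKM in F/F and at 18.5, 34.8, 26.2, 26.7 and 25.0 FPKM in ChMKO (0.54, adjusted p = 0.660). Pfkfb3, which makes the activator of phosphofructokinase, was at 52.1 ± 16.2 and 36.7 ± 16.7 FPKM (-0.52, interval -1.11 to 0.07), with 66.5 FPKM in ChMKO mouse 60 and 28.1 to 30.5 FPKM in the other 4. Of 36 genes of pyruvate entry and the TCA cycle 16 were higher and 20 lower, and Pcx, pyruvate carboxylase, was at 25.5 ± 4.92 and 31.2 ± 2.99 FPKM (0.29, adjusted p = 1). Subunits of the respiratory chain showed many small differences of the same sign: 69 of 75 means were lower in ChMKO, with a median of -0.07. Uqcrh, the hinge subunit of complex III, lay at 270 to 304 FPKM in F/F and at 210 to 272 FPKM in ChMKO (-0.20, adjusted p = 1). The median of the chain was -0.04 without F/F mouse 69, -0.05 without ChMKO mouse 60 or 74, and 0.02 without F/F mouse 69 and ChMKO mice 59 and 74 together. No member of these lists passed the adjusted p.

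No fast- or slow-twitch gene had an unadjusted p under 0.05. The 16 fast-twitch sarcomere genes split into 8 higher and 8 lower with a median of -0.0020. Myh4 was at 11150 ± 1321 FPKM in F/F and at 11720 ± 1400 FPKM in ChMKO (0.07, interval -0.25 to 0.39). Tnnc2, Tnni2 and Tnnt3, the fast troponins, differed by -0.09, 0.03 and -0.10, and Myh1 and Myh2, the myosins of intermediate and fast oxidative fibers, by -0.0045 and 0.09. Each of these 6 signs turned under at least 1 alternative. Of 13 tested slow-twitch sarcomere genes 12 had a lower mean in ChMKO, with a median of -0.27, and leaving out F/F mouse 58 or F/F mouse 69 gave a median of 0.05 or -0.48. They varied far more within each genotype than the fast genes. Myh7, the slow myosin, was at 0.202, 37.6, 1.74, 18.8 and 16.5 FPKM in F/F and at 6.80, 2.86, 0.227, 36.2 and 1.66 FPKM in ChMKO. F/F mouse 58 and ChMKO mouse 72 were highest, and the interval of the difference ran from -3.06 to 1.62. Tnnc1, Tnni1 and Tnnt1, the slow troponins, followed the same order at the top, with differences of -0.70, -0.56 and -0.60. The 95% intervals of the slow genes reached a median of 1.17 to either side, against 0.21 over all genes. Myh7b, a slow-fiber myosin at 0.107 to 1.04 FPKM, was not tested.

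Myod1, a determination factor, was at 13.1 ± 4.09 and 14.8 ± 5.22 FPKM (0.16, interval -0.38 to 0.71), and Myog, its differentiation partner, at 3.32 ± 0.800 and 3.58 ± 1.75 FPKM (0.03, interval -0.44 to 0.50). Pax7, the mark of satellite cells, reached 0.278 to 0.704 FPKM and was below the filter. Of 22 tested genes of the list, 13 were higher and 9 lower. Actc1, the cardiac actin of immature muscle, was at 91.0, 52.7, 91.5, 59.9 and 68.8 FPKM in F/F and at 121, 234, 64.0, 99.5 and 111 FPKM in ChMKO (0.69, adjusted p = 1). The high value came from ChMKO mouse 60. Vcam1, an adhesion molecule of satellite cells, endothelium and myeloid cells, was at 0.702 ± 0.141 and 1.08 ± 0.328 FPKM (0.28, adjusted p = 1).

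Markers of other cell types moved with single libraries. The summed FPKM of 8 tendon markers ran from 16.4 to 187 in F/F and from 104 to 377 in ChMKO, lowest in F/F mouse 69 and highest in ChMKO mice 59 and 74. All 7 tested tendon markers had a higher mean in ChMKO, with a median of 1.11, and 0.73 without F/F mouse 69. Fmod, fibromodulin of tendon collagen, was at 94.3, 50.2, 5.04, 44.9 and 44.9 FPKM in F/F and at 166, 54.1, 69.9, 53.0 and 201.4 FPKM in ChMKO. Fibroblast markers had sums of 147 to 335 and 238 to 586. All 8 had a higher mean in ChMKO, with a median of 0.11, and leaving out single mice gave 0.0074 to 0.23. Col1a1, the main fibrillar collagen, was at 29.0 ± 13.0 and 58.5 ± 34.5 FPKM (0.89, interval -0.06 to 1.83). Schwann cell markers were high in 1 library: their summed FPKM was 464 in F/F mouse 69, 19.0 to 51.1 in the other F/F mice and 14.3 to 35.1 in ChMKO. Sox10, the Schwann cell transcription factor, was at 0.513, 0.765, 4.10, 0.505 and 0.611 FPKM in F/F and at 0.131 to 0.381 FPKM in ChMKO, with no overlap (-0.68, adjusted p = 1). All 8 tested Schwann cell markers had a lower mean in ChMKO, with a median of -0.84, and a median of -0.39 over the 5 still tested without F/F mouse 69. No marker of these lists was at 0 in all libraries. Their part in other differences was not tested beyond the values given without these libraries.

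Leukocyte markers had 12 tested members, all with a higher mean in ChMKO, 5 with an unadjusted p under 0.05 and a median of 0.33. Over all genes tested, 6694 of 12724 had a higher mean and 2.86% were also under that p. The 5 were the complement subunits C1qa, C1qb and C1qc, which tissue macrophages make, with Cd68 and S100a8. C1qb was at 5.30, 7.41, 5.59, 6.34 and 8.25 FPKM in F/F and at 13.2, 9.94, 9.30, 7.57 and 9.62 FPKM in ChMKO (0.52, interval 0.22 to 0.83, adjusted p = 0.629). ChMKO mouse 59 was highest and mouse 72 lay within the F/F range. C1qa was at 8.82 ± 1.53 and 12.8 ± 3.40 FPKM (0.48, adjusted p = 0.862), C1qc at 7.56 ± 1.53 and 10.1 ± 2.22 FPKM (0.37, adjusted p = 1) and Cd68, a lysosomal protein of macrophages, at 1.91 ± 0.494 and 2.93 ± 1.01 FPKM (0.41, adjusted p = 1). The summed level lay at 47.4 to 80.8 FPKM in F/F and at 67.4 to 124 FPKM in ChMKO. Ptprc, the pan-leukocyte gene, was below the filter. The median was 0.22 without ChMKO mouse 59. Without F/F mouse 69 and ChMKO mice 59 and 74 it was 0.10, and those of the tendon and fibroblast markers were 0.06 and -0.16. Those libraries were chosen by their tendon and Schwann cell sums, so the smaller tendon median follows from the choice.

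**Figure D4:**
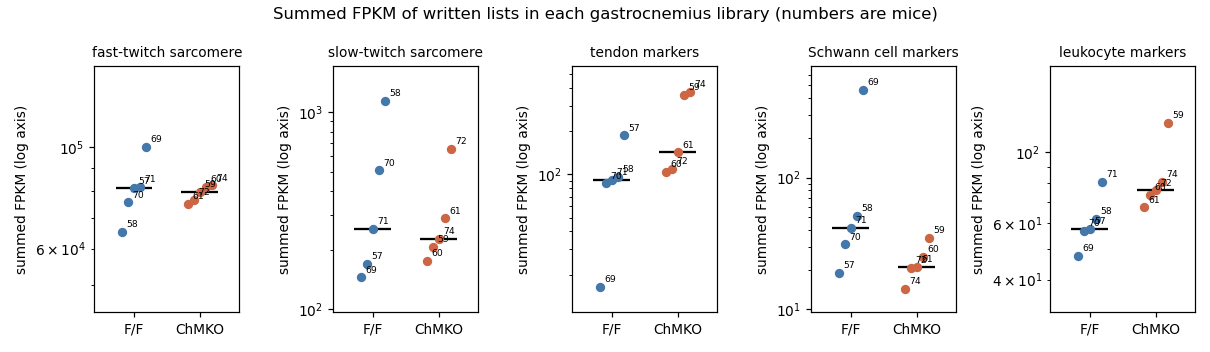
Summed FPKM of 5 gene lists in each library on log axes, with mouse numbers beside the points and the median of each genotype as a line. F/F mouse 69 is highest for Schwann cell markers (464) and lowest for tendon markers (16.4), and ChMKO mice 59 and 74 are highest for tendon markers (359 and 377).

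**Figure D5:**
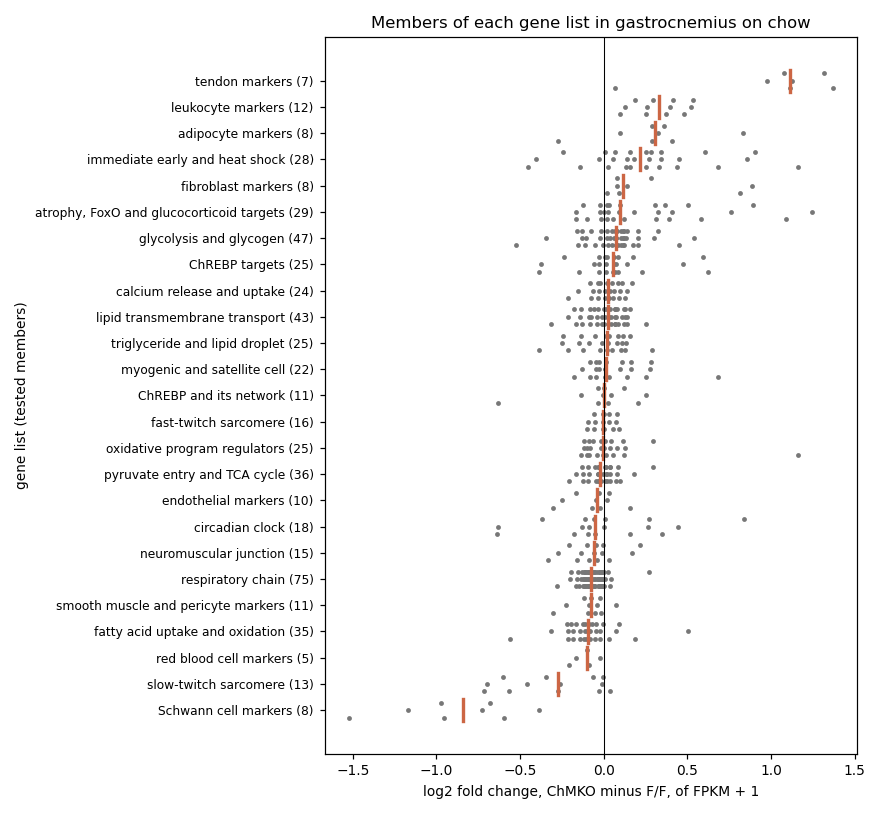
Log2 fold change (ChMKO minus F/F) of every tested member of 25 gene lists as points and the median of each list as an orange line, ordered by the median. Medians run from -0.84 (Schwann cell markers) to 1.11 (tendon markers), and those of the metabolic and fast-fiber lists lie close to 0.

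Other GC libraries of the series allowed a look in other mice. They came from the normoxic arm of a hypoxia experiment (4 F/F and 4 ChMKO mice), were deposited in a separate table and were tested within it, where 1206 of 10846 genes (11.1%) had an unadjusted p under 0.05. Mlxipl was at 8.88, 7.86, 7.76 and 10.01 FPKM in normoxic F/F and 3.26, 3.15, 3.51 and 3.28 FPKM in normoxic ChMKO (-1.16, adjusted p = 0.00655). Of the 20 genes named above for the study's criterion or for size without overlap that were higher in chow ChMKO GC, 11 were tested there. All 11 had a higher mean in ChMKO, and Rgcc, Nfil3 and Tnfrsf12a had an unadjusted p under 0.05. Of the 15 such genes that were lower, 5 were tested there, 4 had a lower mean, and Mlxipl alone had an unadjusted p under 0.05. Rgcc was at 29.0, 40.1, 24.8 and 24.1 FPKM in F/F and at 43.8, 49.4, 42.9 and 53.5 FPKM in ChMKO (0.69, adjusted p = 0.419). The groups did not overlap. Nfil3 was at 38.6, 55.8, 14.8 and 7.83 FPKM against 57.7, 53.5, 58.4 and 57.9 FPKM (1.29, adjusted p = 0.419). Thus 1 F/F mouse lay within the ChMKO range, 1 below it and 2 far below it. Dysf was at 9.42, 10.1, 7.4 and 8.03 FPKM against 9.79, 14.5, 15.1 and 14.8 FPKM (0.57, adjusted p = 0.419), with 1 ChMKO mouse inside the F/F range. The 3 noncoding RNAs were not analysed in that table.

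In SOL of the chow mice 1300 of 13348 genes (9.74%) had an unadjusted p under 0.05. Mlxipl there was at 55.2, 54.3, 49.5, 43.8 and 64.1 FPKM in F/F and at 29.96, 46.1, 31.7, 41.0 and 43.0 FPKM in ChMKO (-0.47, adjusted p = 0.384), and 1 library overlapped. One F/F library of SOL carries different mouse numbers in its title and its column, so the muscles were not matched by mouse. Of the 20 genes higher in GC, 16 had a higher mean in SOL of ChMKO mice and 10 an unadjusted p under 0.05 there, among them Nr4a3 (1.20), Irs2 (0.88), Nfil3 (0.80), Mt2 (0.78), Rgcc (0.52) and Sik1 (0.34). Of the 15 genes lower in GC, 12 had a lower mean in SOL of ChMKO mice, and 3 had an unadjusted p under 0.05 there (Mlxipl, Snord42b and Mir133b). Tnfrsf12a differed by -0.01 in SOL, and whether its difference is larger in GC was not tested. Dysf was at 8.78 to 11.1 FPKM in F/F and at 12.7 to 14.9 FPKM in ChMKO SOL (0.46, adjusted p = 0.158), again without overlap.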

How the data were processed

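Gastrocnemius RNA of 10 mice was analysed from the chow table. Per the labels and the methods, the authors trimmed reads with fastp 0.18.0 and aligned them with HISAT2 2.1.0, the labels also name Bowtie2 2.2.8, StringTie 1.3.1 and RSEM, and the values the authors deposited are FPKM. The labels name GRCm39, but positions in the table follow GRCm38 sequences, which are used here. The use of strand in counting is not given in the sources used here.

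Log2(FPKM + 1) was fitted with limma 3.58.1 (lmFit, eBayes with a trend, R 4.3.3), two-sided, over the 12724 genes whose mean reached 0.5 FPKM, with Benjamini-Hochberg adjustment. The authors tested with DESeq2. The fold change here understates differences of low genes. Of a repeated symbol the entry with the highest mean was kept. Whole reads were recovered from FPKM, gene length and library total (tolerance 0.03 of a read), giving 98.8% to 99.2% of each total, and floors of 3 reads cover counting error only. The procedure was tested on simulated data.

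Groups came from the labels. Members and gene lists were chosen with earlier results of these data known. Named genes are Mlxipl, Mlxip and Mlx, all genes past either threshold, the 8 largest and 8 smallest differences without overlap above 5 FPKM, the extremes of each list and its members with an unadjusted p under 0.05, fiber and myogenic markers, Txnip, Arrdc4 and neighbours. The text shows a selection of these. Alternatives were another pseudocount, filter, scaling, moderation, mouse number range as a term and leaving out each mouse, and, after seeing the data, voom, protein-coding genes alone and leaving out 3 libraries together. The mice are separate animals, so p-values measure the spread between mice.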

Additional observations from a re-analysis of the deposited data

Results flagged for a closer look

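Within each genotype, the value of 1 library can lie far from the other 4. The distance was checked for 103 named genes in chow GC and for 5 of them in normoxic GC, 216 groups in all, of which chance alone would mark about 1 in 20. Marked were 18 values, by a gap to the nearest library of more than 0.71 of the range on the log2 scale in groups of 5, with the matching limit in groups of 4.

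Several touch the results above. Mt2 was at 25.0 FPKM in ChMKO mouse 72 against 53.0 to 63.9 in the other ChMKO mice. Fosl2 was at 4.62 FPKM and Maff at 1.46 FPKM in F/F mouse 57, below the other F/F mice, which had at least 7.37 and 3.09 FPKM. C1qc was at 10.2 FPKM in F/F mouse 71 and Sox10 at 4.10 FPKM in F/F mouse 69, both above the rest. Fmod was at 5.04 FPKM in F/F mouse 69, and Gm12927 at 8.40 FPKM and Sec61g at 21.0 FPKM in the same mouse. Myh4 was lowest in F/F mouse 58 at 8919 FPKM, the mouse with the highest Myh7 of its group.

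Among ChMKO mice, Pfkfb3 was at 66.5 FPKM in mouse 60, Pcx at 26.1 FPKM in mouse 59 and Hilpda at 0.541 FPKM in mouse 61. Mouse 74 had 3.99 FPKM of G0s2, 4.15 FPKM of Gm5436 and 4.22 FPKM of Snord58b, which was at 0 in the other 4, and mouse 61 had 4.35 FPKM of Snord42b. In normoxic ChMKO GC, Dysf was at 9.79 FPKM in 1 mouse against 14.5 to 15.1 in the others, and Nfil3 at 53.5 FPKM in another against 57.7 to 58.4.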

How the results depend on the processing

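No paired analysis was possible because the mouse numbers of the F/F and ChMKO groups do not overlap. Precision was limited by 5 mice per genotype and, for the small RNAs, by single reads. The number of genes past the study's criterion, 21, was 52 with a pseudocount of 0.1, 7 above 5 FPKM, 56 with voom on recovered reads, 8 with protein-coding genes alone and 17 to 35 when single mice were left out (35 without F/F mouse 57). Past the adjusted p and the fold limit were 3 genes, 0 with protein-coding genes alone (limma), and 3 to 4 when single mice were left out. The number with an unadjusted p under 0.05, 589, was 234 above 5 FPKM, 1172 without a filter and 442 to 814 when single mice were left out. Fewer or more genes tested set the counts of the filters and of the coding genes. For the others the cause was not tested. The Mlxipl difference stayed negative throughout, from -0.79 to -0.48. The difference on the first component, 4.67, was 1.96 to 15.5 when it was refitted without single mice.

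Some signs turned. With mouse number range as a term, Arrdc4 was at -0.010, Myog was at -0.015 and Ckm at 0.0083. Without F/F mouse 69 and ChMKO mice 59 and 74, Chad was at -0.023, Tnmd was at -0.023, Col1a2 was at -0.097, Arrdc4 was at -0.115, Myh2 was at -0.209, Tnnt3 was at 0.018 and Ckm at 0.090. Leaving out single mice gave -0.037 to 0.095 for Mlx, -0.728 to 0.038 for G0s2, -0.036 to 0.066 for Arrdc4, -0.00024 to 0.611 for Cidec, -0.267 to 0.435 for Myh2, -0.121 to 0.094 for Myh1, -0.0064 to 0.148 for Myh4, -0.176 to 0.019 for Tnnc2, -0.099 to 0.182 for Tnni2, -0.144 to 0.0071 for Tnnt3, -0.027 to 0.265 for Myod1, -0.167 to 0.140 for Myog and -0.112 to 0.087 for Ckm. The 3 libraries left out together were chosen by tendon and Schwann cell sums. Smaller differences of the tendon markers Chad and Tnmd followed from that choice. For the other signs the cause was not tested.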

Other observations

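Clock genes, which oscillate over the day through the loop of Arntl, Per and Cry, were read because Nfil3 belongs to their output. Of 18 tested, 7 had a higher and 11 a lower mean in ChMKO, with a median of -0.05, which was -0.01 without F/F mouse 71, -0.02 without ChMKO mouse 72 and -0.10 without F/F mouse 69 and ChMKO mice 59 and 74 together. Nr1d1, the repressor REV-ERB alpha, was at 57.5, 30.01, 55.6, 66.7 and 37.1 FPKM in F/F and 20.0, 37.4, 21.8, 42.2 and 36.6 FPKM in ChMKO (-0.63, adjusted p = 1). Dbp, an output activator, was at 5.43, 5.06, 8.61, 19.0 and 29.0 FPKM in F/F and 4.82 to 10.6 FPKM in ChMKO (-0.64, interval -1.56 to 0.28). Arntl was at 7.41, 6.67, 5.44, 4.22 and 2.10 FPKM in F/F and 4.95 to 8.91 FPKM in ChMKO (0.44, interval -0.10 to 0.99). F/F mouse 71 thus had the highest Dbp and the lowest Arntl of its group, and the spread within F/F was wider than the difference of the means. Times of tissue collection were not used here.

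Lower means prevailed in the vessel and neuromuscular junction lists, with 10 of 11 smooth muscle and pericyte, 7 of 10 endothelial and 12 of 15 junction genes, beside 6030 of all 12724 genes, and 1 member of each had an unadjusted p under 0.05. Of all genes, 1.77% had such a p with a lower mean. The medians of the 3 lists, -0.08, -0.04 and -0.06, moved with single mice. Without F/F mouse 69 they were -0.16, -0.12 and -0.15. The smooth muscle and pericyte median was -0.03 without ChMKO mouse 60, the endothelial one 0.03 without F/F mouse 58, and the junction one -0.0088 without ChMKO mouse 74. Rgs5, a pericyte gene, was at 48.8 ± 9.31 and 38.9 ± 2.37 FPKM (-0.30), Egfl7, an endothelial factor, at 15.7 ± 2.42 and 13.0 ± 1.39 FPKM (-0.25), and Chrne, the adult subunit of the acetylcholine receptor, at 6.86 ± 1.31 and 5.26 ± 1.17 FPKM (-0.34), each with an adjusted p of 1 (limma, n = 5 each). Adipocyte markers summed to 145 to 243 FPKM in F/F and 137 to 218 FPKM in ChMKO. Of 8 tested, 7 had a higher mean in ChMKO, with a median of 0.31. The 1 with an unadjusted p under 0.05 (1.77% of all genes in that direction) was the other, Fabp4, the fatty acid binder of fat cells and capillaries, at 146 ± 17.95 and 120 ± 16.2 FPKM (-0.27, adjusted p = 1). Leaving out 1 of the F/F mice 58, 71, 70 and 69 in turn gave a median of 0.08, 0.16, 0.50 and 0.60. Red blood cell markers summed to 61.9 to 123 and 64.0 to 98.0 FPKM. Of 24 tested genes of calcium release and uptake, 15 had a higher and 9 a lower mean, and none had an unadjusted p under 0.05.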
